A study of Homo sapiens with 8 samples.

Results

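HepG2 cells, an established human hepatocellular carcinoma line, were compared between 24 and 12 h in serum-free medium, with the treatment arm as a block. The 4 arrays compared, of 8 in the series, were 1 control and 1 quercetin array at 12 h and 1 control and 1 quercetin array at 24 h. All cultures had been deprived of serum before the time course began, and the medium stayed free of serum throughout, and the treated arm received the flavonol quercetin at 3 µM. Control cells here are therefore starved cells and not cells in full medium. The labels give no genotype or passage, and they do not say whether the arrays came from separate cultures. With 1 array for each treatment and time, a change shared by both arms was measured against the spread of the treatment difference over the 4 times (2, 4, 12 and 24 h), which may be technical. The samples were chosen by their labelled time alone.

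Serum carries insulin-like and other growth factors that signal through 2 main routes, the PI3K-AKT route and the RAS-ERK route. When AKT is quiet, FOXO transcription factors stay in the nucleus and switch on genes of fasting, such as those of glucose output. Active ERK induces immediate early transcription factors and, with them, the phosphatases and inhibitors that turn ERK down again. Entry into DNA replication needs the E2F transcription factors, which pocket proteins of the retinoblastoma family hold silent in resting cells. HepG2 keeps much of the liver's secretory and metabolic gene expression while it divides.

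The arrays carried the markers of the labelled cell type. All 15 liver markers on the arrays, among them ALB (albumin), AFP (alpha-fetoprotein) and APOA1, lay above the brightness filter, and their summed log2 signal ranged from 207.9 to 209.2 at 12 h and from 212.4 to 213.5 at 24 h. Of 8 leukocyte markers on the arrays 5 passed the filter, and the sum ranged from 67.8 to 69.1 at 12 h and from 66.5 to 67.4 at 24 h. The brightest of them was LYZ (lysozyme), at 13.40 to 14.16, while the defining leukocyte gene PTPRC lay between 7.17 and 7.79 over the same 4 arrays. The sums over the 4 arrays ranged from 54.2 to 55.2 for 7 fibroblast markers, from 37.1 to 37.4 for 5 endothelial markers and from 44.9 to 45.9 for 6 markers of other epithelial lines. Of these, 5 fibroblast, 2 endothelial and 3 other epithelial markers passed the filter. The median level over the 8 arrays was 14.6 for liver markers. It was 7.83 for leukocyte, 8.34 for fibroblast, 7.07 for endothelial and 7.38 for other epithelial markers.

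The 12 h arrays stood apart from the 24 h arrays in some measures that do not come from the cells' messenger RNA. The 18S ribosomal RNA probe sets averaged 7.35 (control) and 7.29 (quercetin) at 12 h, against 9.82 and 9.16 at 24 h. They averaged 8.57 and 12.01 at 2 h and 11.52 and 11.62 at 4 h, so the 24 h arrays were below the 4 h arrays. Mean signal of the hybridisation spike-ins, transcripts added to every sample, was 11.19 and 11.35 at 12 h, against 12.01 and 11.83 at 24 h. The control array at 2 h was the only other array in the low spike-in class. The values on an array were also more widely spread at 24 h (SD 1.95 and 1.90) than at 12 h (SD 1.79 and 1.83), so bright genes sat higher at 24 h as deposited. The median change of all genes was 0.16 (log2, 24 h minus 12 h), but it was 0.004 among the dimmest 25% of the genes and 0.31 among the brightest 25%. After quantile normalization, which forces every array to the same distribution, the median change of all genes was -0.01. Counts of calls over all genes and in each list are therefore given on both scales. Counts for single arms, array class, 18S signal, left-out arrays and positions in the time course use the deposited values. The words "rose" and "fell" stand for genes called on the deposited scale. How far array quality and time contributed to a change cannot be told apart for most genes, because both 12 h arrays lie in 1 class and both 24 h arrays in the other.

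**Figure D1:**
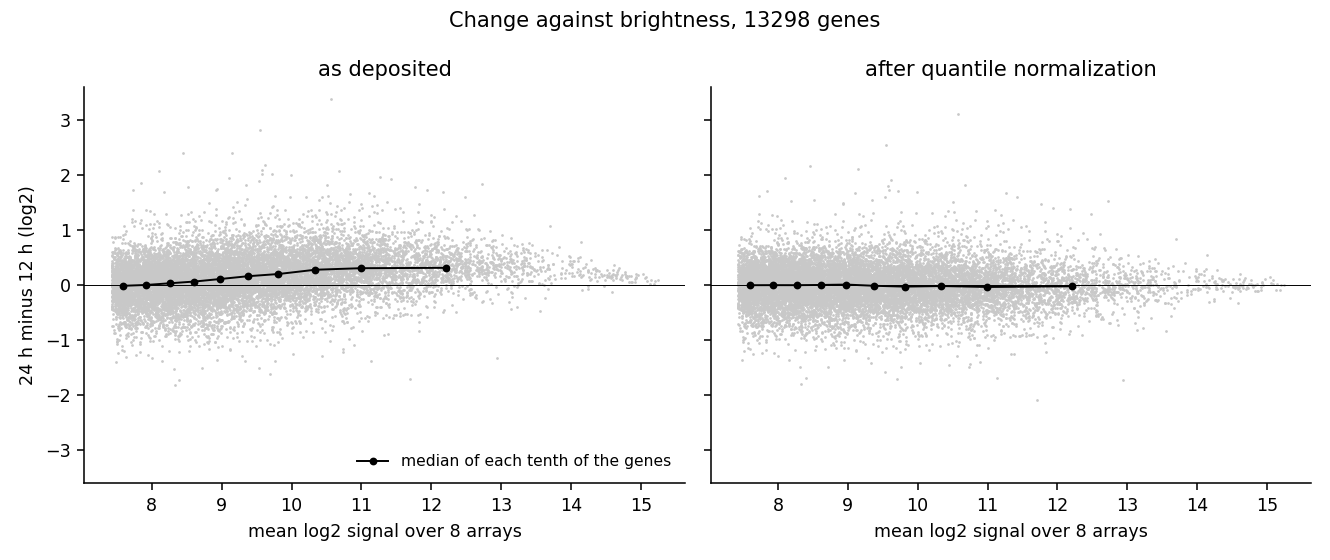
Change from 12 to 24 h (log2, vertical axis) against mean log2 signal over 8 arrays (horizontal axis) for the 13298 genes tested, as deposited on the left and after quantile normalization on the right. The black line joins the medians of 10 equal groups of genes ordered by brightness. It climbs with brightness on the left and stays near 0 on the right.

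Between 12 and 24 h, 3158 of 13298 genes tested were called as deposited (limma, Benjamini-Hochberg adjusted p under 0.05). Of these 2522 were higher (19.0% of genes tested) and 636 were lower (4.78%), so that 79.9% of the calls pointed up. After quantile normalization 1994 genes were called, 899 higher (6.76%) and 1095 lower (8.23%), and 45.1% of the calls pointed up. No gene was called one way as deposited and the other way after quantile normalization. On both scales, with the same sign in both arms, 899 genes were called higher (6.76%) and 534 lower (4.02%). The change as deposited was larger in size in the control arm for 1050 of the 1433 genes called on both scales. On that scale the median change of all genes was 0.25 in control and 0.07 in quercetin cells. The share over all genes was not counted, and the difference between arms was not tested.

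Calls depended on single arrays and on the array class. Only at 2 h did the arrays of a time differ in class, with the control array low and the quercetin array high. The class block therefore rests on that pair, 1 array against 1 array, and is mixed with any effect of quercetin at 2 h. With array class as a block 922 genes were called, 779 of them among the 3158, and 481 of the 899 rises and 47 of the 534 falls remained. With the 18S signal as a covariate 2097 were called, with 768 of the rises and 228 of the falls. Without the control array at 24 h 853 genes were called, and without the control array at 12 h 1179, with 575 and 652 of the rises and 147 and 174 of the falls. Of the 12 largest rises, SOD2 was the one that lost its call with array class as a block.

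Where the 24 h arrays lay in the time course was then counted for these genes. For 884 of the 899 rises (98.3%) the mean at 24 h was above the means at all 3 other times, which held for 49.5% of all genes. The mean at 12 h was below all others for 355 of the rises (39.5%, against 25.95% of all genes). Both 24 h arrays lay above all 6 other arrays for 832 rises (92.5%, against 29.6% of all genes). For 495 of the 534 falls (92.7%) the mean at 24 h was below the other 3, against 23.0% of all genes, and for 254 (47.6%, against 12.6% of all genes) the mean at 12 h was above all others. Both 24 h arrays lay below all 6 other arrays for 414 falls (77.5%, against 10.02% of all genes). These shares describe the genes chosen by the call and carry no test.

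In the arms taken singly, where 1 array stands against 1 array with no test, 562 genes were at least 1 log2 unit higher at 24 h in control cells (4.23%) and 185 fell below by as much (1.39%). In quercetin-treated cells 194 passed this size upward (1.46%) and 68 downward (0.511%). Both arms passed 1 together for 154 genes upward and 22 downward. Across all probe sets the 24 and 12 h arrays correlated at r = 0.973 in control and 0.982 in quercetin cells, a description over probe sets of the same arrays, against 0.990 between the arms at 12 h and 0.987 at 24 h.

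**Figure D2:**
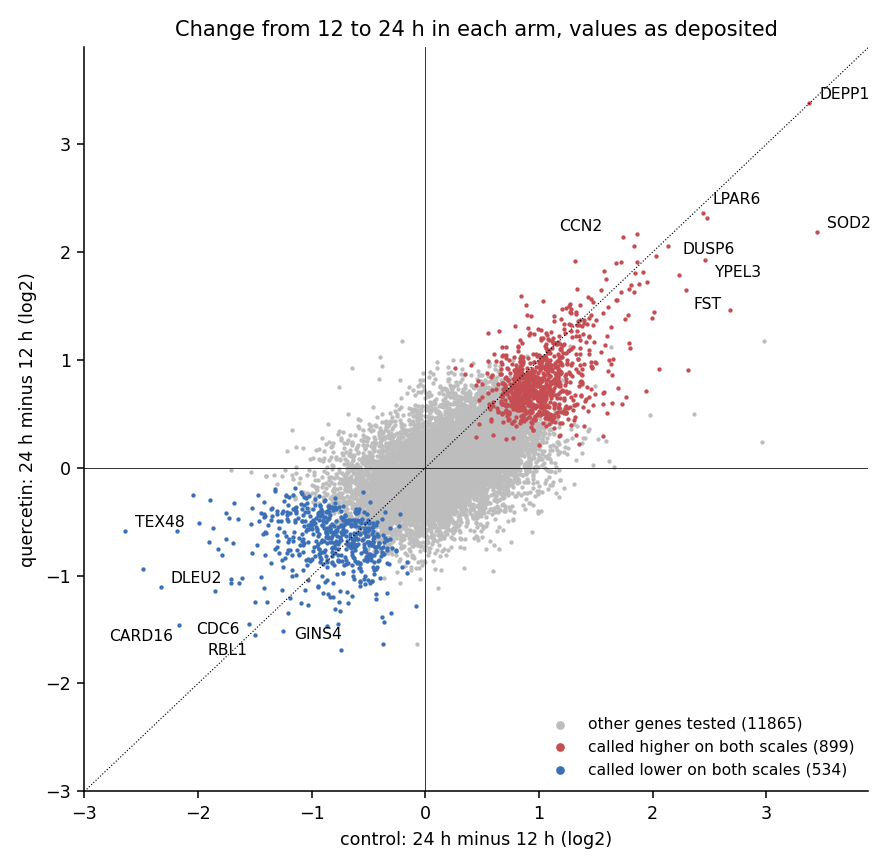
Change from 12 to 24 h in control cells (horizontal axis, log2) and quercetin-treated cells (vertical axis, log2), 1 point a gene, values as deposited; the dotted line marks equal change. Red points are the 899 genes called higher on both scales and blue points the 534 called lower. DEPP1 sits on the line at 3.38 in both arms, and SOD2 and TEX48 lie on the control side of it.

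DEPP1, a FOXO target induced by fasting and progesterone that is linked to autophagy, showed the largest rise. At 12 h the log2 signal was 9.59 without and 9.60 with quercetin, and at 24 h it had reached 12.97 and 12.98. The arms lay together at both times, and both 24 h arrays lay above the other 6, which ranged from 9.44 to 10.27. The change was 3.38 ± 0.19 (SE, 2 arrays a time), a 10.4-fold rise (limma adjusted p = 4.3e-10), and 3.12 after quantile normalization.

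The promoter of DEPP1 is shown because it holds a forkhead letter match, the sequence that FOXO and related factors can bind. BTG1, an anti-proliferative gene and a FOXO target in other cells, is shown beside it for the same reason. The capitals mark GTAAACA or its reverse complement. The sequences are from RefSeq, build GRCh38.p14, in the direction of the gene and ending 1 base before the annotated start. DEPP1 lies at chr10:44978810-44979009, minus strand, and BTG1 at chr12:92145847-92146066, minus strand.
DEPP1: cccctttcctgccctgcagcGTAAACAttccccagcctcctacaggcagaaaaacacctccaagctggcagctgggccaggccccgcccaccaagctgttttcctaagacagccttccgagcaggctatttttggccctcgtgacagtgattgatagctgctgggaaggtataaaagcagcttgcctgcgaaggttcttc
BTG1: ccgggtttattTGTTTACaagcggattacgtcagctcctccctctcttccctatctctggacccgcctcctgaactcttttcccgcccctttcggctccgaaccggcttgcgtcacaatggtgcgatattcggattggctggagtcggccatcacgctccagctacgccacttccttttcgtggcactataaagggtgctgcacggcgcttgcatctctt
This match stood in 31 of 721 promoters (4.30%) of genes called higher on both scales that have a RefSeq promoter of 300 bases, in 9 of 404 (2.23%) called lower, and in 260 of all 10625 matched genes (2.45%). In the list of FOXO-linked starvation genes it stood in 1 of 13 promoters. A match is a description of letters and not of binding.

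The genes next to DEPP1 in size of rise came from several functions. LPAR6, a receptor for lysophosphatidic acid, went from 8.83 and 8.54 (control and quercetin) at 12 h to 11.27 and 10.90 at 24 h, a change of 2.40 ± 0.19 (SE; limma adjusted p = 7.3e-08). TCIM, a small regulator of Wnt signalling, rose by 2.40 ± 0.19. YPEL3, a growth-suppressing gene, went from 8.71 and 8.83 to 11.17 and 10.76, a change of 2.19 ± 0.19. For YPEL3 1 of 2 bright probe sets pointed up. FILIP1L rose by 2.02 and the homeobox gene HOXD1 by 2.01, and in both the 24 h arrays lay above all others. CEBPD, a transcription factor of the acute-phase response, rose from 9.24 and 9.62 to 11.27 and 11.58, by 2.00 ± 0.18.

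Among the largest rises, a group encodes secreted proteins around the cell: FST (follistatin, which binds activin), LOX (lysyl oxidase, which crosslinks collagen) and CCN2 (connective tissue growth factor). FST went from 10.11 and 10.55 at 12 h to 12.40 and 12.20 at 24 h, and CCN2 from 10.49 and 10.39 to 12.23 and 12.54. Their changes from 12 to 24 h were 1.97 ± 0.16 and 1.94 ± 0.17 (SE, 2 arrays a time). Both genes were lowest at 12 h. At 2 h FST stood at 11.56 (control) and 11.46 (quercetin), and CCN2 at 11.90 and 11.44. From 2 to 24 h FST changed by 0.79 and CCN2 by 0.71. LOX rose by 1.95 ± 0.29, with a control signal of 9.55 at 2 h that the other early arrays, at 8.21 to 8.26, did not share.

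SOD2, mitochondrial superoxide dismutase, needs its 8 values to be read. Both 12 h arrays read 8.31, the 24 h arrays read 11.76 and 10.50, the 4 h arrays 9.48 and 9.93, and the 2 h arrays 8.27 (control) and 9.79 (quercetin). The 3 lowest arrays were thus the 3 arrays of the low spike-in class. Its change was 2.82 ± 0.35 (limma adjusted p = 1.6e-05), and with array class as a block the adjusted p was 0.22. With the 18S signal as a covariate the change was 1.63 (adjusted p = 0.00081), and with robust moderation the adjusted p was 0.095. RPL27A (a ribosomal protein) and CALR (calreticulin) shared this pattern in part. RPL27A read 9.33 (control) and 12.77 (quercetin) at 2 h, then 8.61 and 8.71 at 12 h, then 11.59 and 9.89 at 24 h, so that its rise of 2.08 turned to -1.76 with array class as a block. CALR, at 10.76 and 11.80 at 12 h and 13.07 and 12.71 at 24 h, changed by 1.61 on its brightest probe set and by -0.45 on its gene-specific one. With array class as a block its change was 1.29 (adjusted p = 0.049).

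The FOXO-linked starvation list followed DEPP1's direction. Of its 18 tested members 13 were called higher and 0 lower as deposited, against 19.0% and 4.78% of all genes, and 7 higher and 0 lower after quantile normalization. SOD2, whose lowest readings were on the arrays of the low spike-in class, is counted among the higher members on both scales. The list's median change was 0.67 (all genes 0.16) and 0.44 after quantile normalization (all genes -0.01). ERBB3, a receptor of the EGF receptor family that cells raise when AKT is inhibited, went from 11.46 and 11.28 at 12 h to 13.03 and 13.11 at 24 h, a change of 1.70 ± 0.13. ERBB3 had 2 of 4 bright probe sets with that sign. It was lowest at 12 h and stood at 12.39 (control) and 12.24 (quercetin) at 2 h. Its change from 2 to 24 h was 0.75. BCL6, a transcriptional repressor, rose by 1.37 ± 0.15, CCNG2 (cyclin G2, high in resting cells) by 1.09, and PINK1, a kinase of mitochondrial quality control, by 0.78. FOXO3 rose by 0.65 as deposited and stood at 0.31, not called, after quantile normalization. Members that did not follow were FBXO32, a ubiquitin ligase of muscle wasting (-0.34, not called), and ARRDC4 (-0.43, not called). With array class as a block 4 members were called, and the median was 0.75. Without the control array at 12 h, the control array at 24 h or the quercetin array at 24 h, 8 were called higher in each case.

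Genes of the insulin and insulin-like growth factor axis were called higher in 7 of 18 and lower in 0 as deposited, and higher in 5 and lower in 1 after quantile normalization. Over all genes 19.0% were called higher and 4.78% lower as deposited, and 6.76% and 8.23% after quantile normalization. These shares are the background for every list's counts on those 2 scales only. With array class as a block 856 of 13298 genes were called higher and 66 lower. Leaving out an array also changed the number of calls over all genes, so list counts from those fits cannot be read against these shares. The list's median was 0.41 and 0.24 on the 2 scales. Both receptors rose. IGF1R went from 10.26 (control) and 11.09 (quercetin) at 12 h to 11.84 and 12.23 at 24 h, a change of 1.36 ± 0.20. INSR went from 9.31 and 9.51 to 11.04 and 10.11, a change of 1.16 ± 0.25, and its values at 2 and 4 h, 10.29 to 11.12, overlapped those at 24 h. The binding proteins IGFBP3 and IGFBP1, which hold the growth factors outside the cell, rose by 1.49 ± 0.19 and 0.79 ± 0.10. IGFBP1 is itself a classic FOXO target in liver and is also counted in the FOXO-linked starvation list. PIK3R1, the regulatory subunit of PI3K, rose by 0.86. RICTOR, a subunit of mTORC2, was the member called lower after quantile normalization (-0.60) and stood at -0.33, not called, as deposited. Leaving out the control array at 12 h left 4 members called higher, and at 24 h 3.

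Among gluconeogenesis and urea cycle genes 9 of 15 were called higher and 0 lower as deposited, and 7 higher and 1 lower after quantile normalization. G6PC1, the catalytic subunit of glucose-6-phosphatase that releases glucose from the liver, went from 10.08 and 9.95 at 12 h to 11.52 and 11.16 at 24 h, a change of 1.33 ± 0.17 (limma adjusted p = 2.3e-05). The 2 h arrays, at 11.57 and 10.97, overlapped the 24 h arrays. For G6PC1 1 of 2 bright probe sets had that sign. PCK1, which makes phosphoenolpyruvate from oxaloacetate, rose by 1.33, and PPARGC1A, the coactivator that drives both genes in fasted liver, by 1.36 ± 0.21. The transaminase GOT1 went from 10.36 and 10.51 to 11.55 and 11.54, above all 6 other arrays, a change of 1.11 ± 0.16. ARG1 (arginase, the last step of the urea cycle) rose by 1.33 ± 0.19, with 1 of 2 bright probe sets of that sign. Members near 0 included PCK2, the mitochondrial form of the carboxykinase (0.05), FBP1 (0.17) and ASS1 (0.03).

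Cyclin-dependent kinase inhibitors and quiescence genes were called higher in 9 of 15 and lower in 0 as deposited, and higher in 6 and lower in 0 after quantile normalization. MXI1, which competes with MYC for its partner MAX, went from 10.07 and 10.02 to 11.91 and 11.83, a change of 1.82 ± 0.16, and YPEL5, a paralogue of YPEL3, rose by 1.34 ± 0.16. BTG1 rose by 0.96 ± 0.18. CDKN1B (p27) and CDKN1A (p21), the inhibitors themselves, rose by 0.54 and 0.55 as deposited and stood at 0.19 and 0.22, not called, after quantile normalization. RBL2, the pocket protein of resting cells, rose by 0.48 as deposited (0.17, not called, after quantile normalization). Its relative RBL1 fell, as described with the replication genes. Without either the 12 h or the 24 h control array 5 were called higher.

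**Figure D3:**
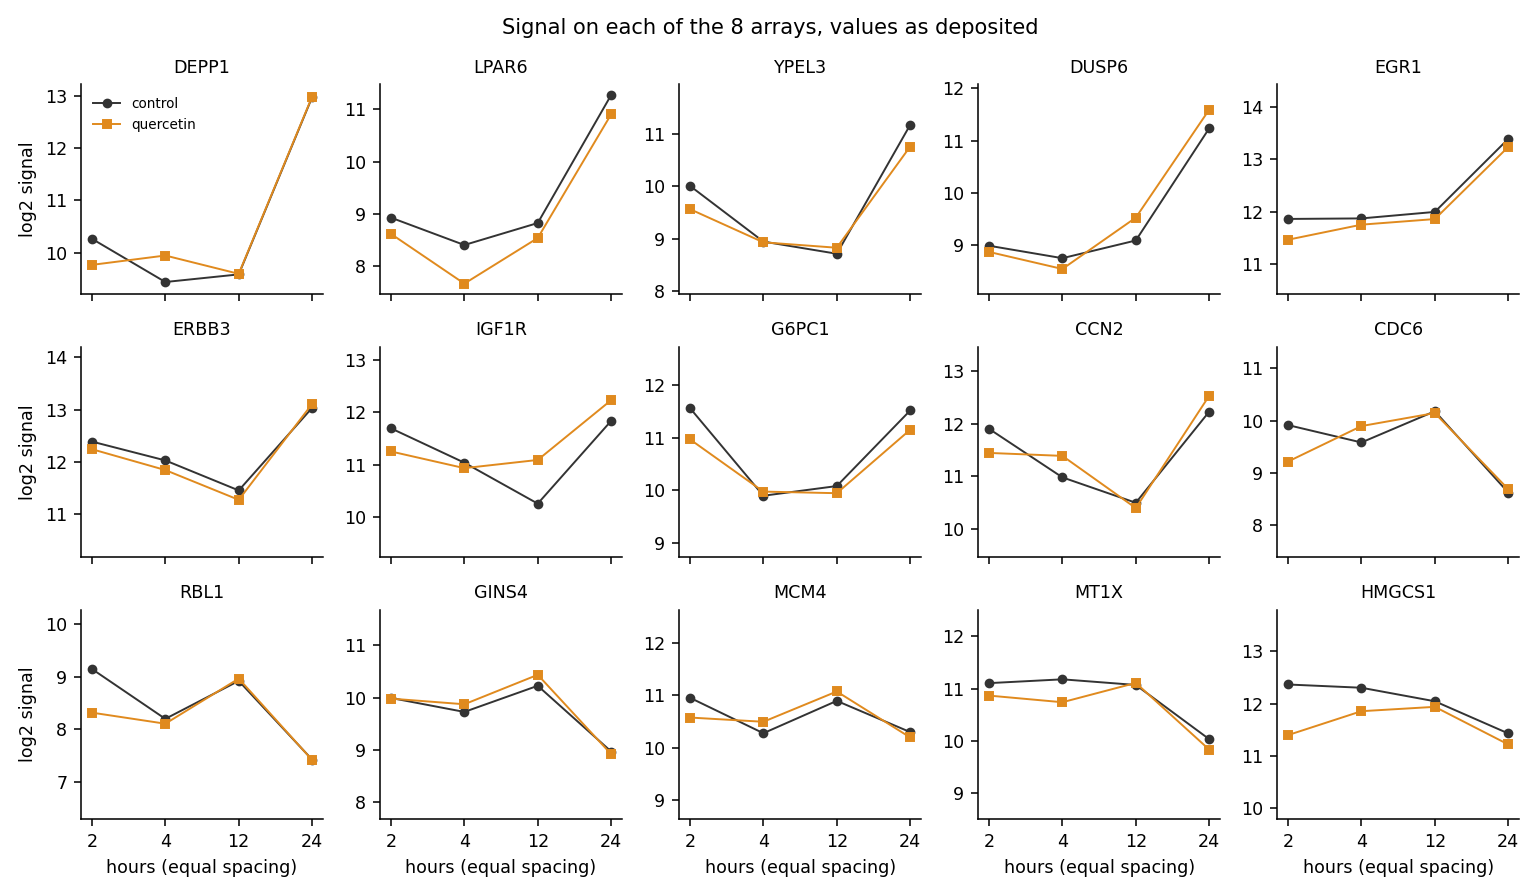
Log2 signal as deposited (vertical axis, a range of at least 4 in each panel) of 15 genes at 2, 4, 12 and 24 h (horizontal axis, equal spacing), with control arrays as black circles and quercetin arrays as orange squares, 1 array a point. DEPP1, LPAR6, DUSP6 and EGR1 stand highest at 24 h in both arms, G6PC1 at 24 h overlaps its 2 h values, and CDC6, RBL1 and GINS4 stand lowest at 24 h in both arms.

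ERK feedback genes gave the largest median of the 37 lists, 0.83 as deposited and 0.58 after quantile normalization. Of 14 members 10 were called higher and 0 lower as deposited, and 9 higher and 0 lower after quantile normalization. DUSP6, the phosphatase that switches off ERK in the cytoplasm, went from 9.09 (control) and 9.53 (quercetin) at 12 h to 11.23 and 11.59 at 24 h, above all 6 other arrays, and all 3 of its bright probe sets pointed up. Its change was 2.10 ± 0.19 (SE, 2 arrays a time; limma adjusted p = 3.7e-07), a 4.29-fold rise. The ETS factors ETV5 and ETV4, which ERK induces, rose by 1.30 ± 0.18 and 0.996 ± 0.17. DUSP1, the nuclear phosphatase, rose by 1.25 ± 0.17. EPHA2 rose by 1.03, the SPRED inhibitors SPRED1 and SPRED2 by 0.84 and 0.83, and SPRY2 by 0.74. HBEGF, a ligand that feeds the pathway, stood at 0.01 and DUSP10, a phosphatase of the stress kinases, at -0.42, neither called. With array class as a block 6 members were called higher and the median was 1.01.

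Immediate early transcription factors were called higher in 13 of 18 and lower in 0 as deposited, and in 7 and 0 after quantile normalization, with medians of 0.65 and 0.56. Without either the 12 h or the 24 h control array 5 were called higher. EGR1 went from 12.00 and 11.86 at 12 h to 13.39 and 13.24 at 24 h, and the 4 earlier arrays lay between 11.47 and 11.87. The change of EGR1 was 1.38 ± 0.13 (limma adjusted p = 3.3e-07). IER3 rose by 1.79 ± 0.18, MYC by 1.33 ± 0.16, and JUNB by 1.31 ± 0.19. MYC was lowest at 12 h. It stood between 11.54 and 12.34 at 2 and 4 h and at 10.87 and 11.37 at 12 h. FOSB and FOSL1 stood at -0.03 and 0.09, not called. The promoter of DUSP1 is shown because it holds the cyclic AMP response element TGACGTCA, in capitals, a letter match present in 2 of 12 promoters of the ERK feedback list and in 337 of 10625 (3.17%) of all matched genes. It lies at chr5:172771196-172771345, minus strand, GRCh38.p14.
DUSP1: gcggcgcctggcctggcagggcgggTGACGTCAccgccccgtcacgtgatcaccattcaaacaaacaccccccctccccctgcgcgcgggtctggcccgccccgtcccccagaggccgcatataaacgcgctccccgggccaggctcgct

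DNA replication genes moved the other way. Of 44 tested members of the G1/S and DNA replication list 14 were called lower and 0 higher as deposited, against 4.78% and 19.0% of all genes, and 27 were called lower and 0 higher after quantile normalization. The median was -0.33 as deposited and -0.58 after quantile normalization. As deposited, 40 of 44 members had the same sign in both arms, against 73.0% of all genes. CDC6, which loads the MCM helicase onto origins, stood at 10.18 (control) and 10.14 (quercetin) at 12 h and at 8.63 and 8.69 at 24 h, below all 6 other arrays, which ranged from 9.22 to 10.18. Its change was -1.50 ± 0.21 (log2, SE; limma adjusted p = 4.8e-05), to a level 2.83-fold lower. Outside the list, GINS4, a subunit of the GINS complex at the replication fork, went from 10.22 and 10.43 to 8.97 and 8.92, a change of -1.38 ± 0.17. RBL1, also outside it, the pocket protein p107 that is itself an E2F target, went from 8.92 and 8.97 to 7.42 and 7.42, a change of -1.53 ± 0.22. E2F8, a repressor E2F made in S phase, changed by -1.20 ± 0.19 and UHRF1, which carries DNA methylation through replication, by -0.90 ± 0.16.

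Within the GINS complex, GINS1, GINS2 and GINS3 changed by -0.59, -0.72 and -0.73. Within the MCM helicase MCM4 changed by -0.74 and MCM5 by -0.60, both called, while MCM2, MCM3, MCM6 and MCM7 stood at -0.20, -0.19, -0.33 and -0.40 as deposited, not called, and at -0.57, -0.59, -0.67 and -0.75 after quantile normalization, all called lower. MCM10, which binds the helicase, changed by -0.80. PCNA, the sliding clamp, and FEN1, the flap nuclease, changed by -0.39 and -0.48, and RRM1, the large subunit of ribonucleotide reductase, by -0.54. RRM2, the small subunit, stood at -0.06, not called, as deposited and at -0.45, called, after quantile normalization. E2F1 and CCND1 (cyclin D1) did not follow, at 0.22 and 0.35, not called.

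For the G1/S and DNA replication list the median change from 4 to 12 h was 0.22, a comparison that shares the 12 h arrays. With array class as a block 0 of 44 members were called and the median was -0.12, and with the 18S signal as a covariate 2 were called and the median was -0.20. Leaving out the control array at 24 h left 6 called lower, and leaving out either quercetin array left 9. CDC6 and RBL1 lost their calls with array class as a block, and GINS4 kept its call, with adjusted p = 0.022. The part of array quality in this result was not tested beyond these values.

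The promoters of PCNA, GINS2, UHRF1 and RBL1 are shown because replication genes share short E2F letter matches close to their starts. The capitals mark TTCCCGCC, TTTCCCGC or TTTGGCGC on either strand (the first and second overlap where both occur) and, in PCNA and UHRF1, CCAAT on either strand. PCNA lies at chr20:5126623-5126722 and GINS2 at chr16:85688955-85689054, both on the minus strand. UHRF1 lies at chr19:4909381-4909500, plus strand, and RBL1 at chr20:37095998-37096097, minus strand, all GRCh38.p14 in RefSeq and ending 1 base before the start.
PCNA: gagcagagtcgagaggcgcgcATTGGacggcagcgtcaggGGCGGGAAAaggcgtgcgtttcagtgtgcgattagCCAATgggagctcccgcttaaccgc
GINS2: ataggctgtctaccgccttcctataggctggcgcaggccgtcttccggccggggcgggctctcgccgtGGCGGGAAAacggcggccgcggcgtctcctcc
UHRF1: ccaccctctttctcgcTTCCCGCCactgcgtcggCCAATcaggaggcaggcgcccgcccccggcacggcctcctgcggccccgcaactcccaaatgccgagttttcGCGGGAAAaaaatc
RBL1: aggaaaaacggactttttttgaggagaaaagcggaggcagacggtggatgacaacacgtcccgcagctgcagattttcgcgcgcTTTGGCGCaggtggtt
In the 300-base window an E2F match stood in 24 of 38 matched promoters of the G1/S and DNA replication list (63.2%), in 9 of the 11 matched members called lower, and in 738 of 10625 (6.95%) of all matched genes. Among all genes called lower on both scales it stood in 41 of 404 (10.2%), and among those called higher in 47 of 721 (6.52%). CCAAT stood in 20 of 38 of the list (52.6%) and in 36.2% of all. The matched letters describe the window and show no binding.

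Mitotic genes did not fall with the replication genes on the deposited scale. Of 49 members of the mitosis and G2/M list 1 was called higher and 2 lower as deposited, and 0 and 14 after quantile normalization. Its median was 0.03 as deposited and -0.24 after quantile normalization, so its sign turned with the scale. On both scales it lay below the median of all genes (0.16 and -0.01). CENPI, a centromere protein, changed by -0.98 ± 0.23 and KIF23, a motor of cytokinesis, by -0.73 ± 0.21, both called on both scales. PTTG1 (securin) rose by 0.45 as deposited and stood at 0.07, not called, after quantile normalization. The letters TTTGAA of the cell cycle homology region stood in 28 of 41 matched promoters of this list (68.3%), against 1 of 38 in the G1/S list and 9.87% of all matched genes.

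**Figure D4:**
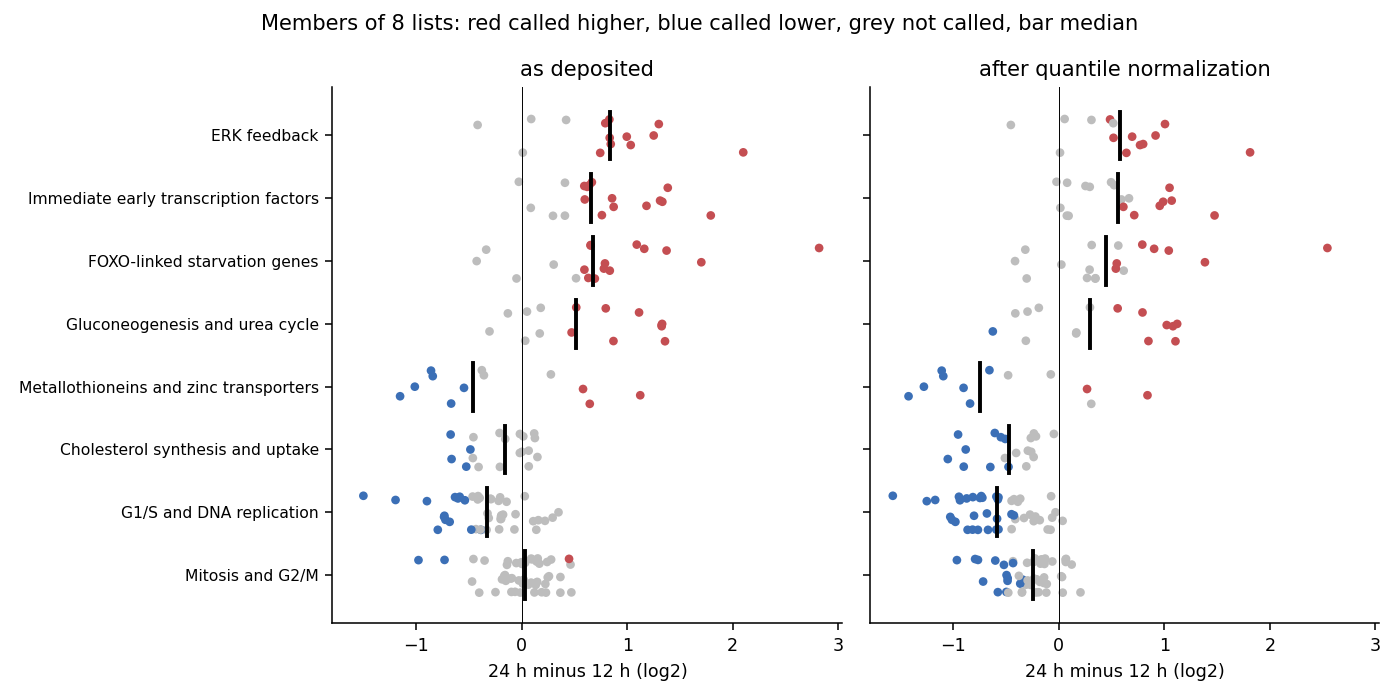
Change from 12 to 24 h (log2, horizontal axis) of each tested member of 8 lists, as deposited on the left and after quantile normalization on the right; red members were called higher, blue members lower and grey members were not called, and the bar is the median. The ERK feedback and immediate early lists lie to the right of 0 and the G1/S list to the left in both panels. The median of the mitosis list lies to the left of 0 only on the quantile scale.

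Metallothioneins, small zinc- and copper-binding proteins whose transcription follows free zinc, fell in 5 of 6 genes measured. MT1X went from 11.07 (control) and 11.11 (quercetin) at 12 h to 10.04 and 9.84 at 24 h, below the 6 other arrays, which lay between 10.74 and 11.18. Its change was -1.15 ± 0.16 (limma adjusted p = 4.7e-05) and -1.43 after quantile normalization. MT1E changed by -1.01 ± 0.17, MT1F by -0.84, MT1G by -0.67 and MT2A by -0.55, all called on both scales, and MT1H stood at -0.38, called only after quantile normalization. Metallothionein genes are close copies of each other, and their probe sets may share signal. In the zinc transporters of the same list SLC39A10 and SLC39A14, importers, rose by 1.12 ± 0.19 and 0.58 ± 0.10, and SLC30A10, an exporter, changed by -0.86. Of the list's 12 members 3 were called higher and 6 lower as deposited, and 2 and 7 after quantile normalization. With array class as a block 1 was called higher and 2 lower, and without the control array at 24 h 2 and 3.

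Cholesterol synthesis and uptake genes were called lower in 4 of 19 and higher in 0 as deposited, and lower in 9 and higher in 0 after quantile normalization. HMGCS1, which makes HMG-CoA, the substrate of the reductase that statins block, went from 12.04 and 11.94 at 12 h to 11.43 and 11.22 at 24 h, a change of -0.67 ± 0.16, and the quercetin array at 2 h, at 11.40, overlapped the 24 h arrays. TM7SF2, ACAT2 and LSS changed by -0.67, -0.49 and -0.53. The list's median was -0.16 as deposited and -0.48 after quantile normalization, and with array class as a block it was 0.05 with 0 members called. Outside this list, INSIG2, a brake on the same pathway, rose by 1.27 ± 0.17. Members called lower numbered 6 without the control and 0 without the quercetin array at 12 h, and 1 and 2 without these arrays at 24 h.

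In fatty acid and triglyceride synthesis 2 of 20 genes were called higher and 2 lower as deposited, and 1 and 8 after quantile normalization. ACSS2, which makes acetyl-CoA from acetate, changed by -0.54 ± 0.16. ACACB, the carboxylase that restrains fat burning, changed by -0.53, but 1 of 4 bright probe sets had that sign. In fatty acid oxidation and PPARA targets 9 of 23 were called higher and 1 lower as deposited, and 4 and 3 after quantile normalization. PLIN2, the coat of lipid droplets, rose by 0.91 ± 0.11, ANGPTL4, a lipase inhibitor of fasting, by 1.03 ± 0.22, and BDH1, an enzyme of ketone bodies, by 0.92 ± 0.19. Without the control array at 24 h 1 synthesis gene was called higher and 0 lower, and 2 oxidation genes higher and 0 lower.

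Secreted plasma proteins were called higher in 26 of 43 and lower in 0 as deposited, and higher in 12 and lower in 1 after quantile normalization. These genes are among the brightest on the arrays, where the deposited scale moves upward, and with array class as a block 1 was called. APOE went from 12.38 and 12.81 at 12 h to 13.45 and 13.38 at 24 h, a change of 0.82 ± 0.13, SERPINC1 (antithrombin) rose by 0.84 ± 0.15, and FGA (a fibrinogen chain) by 0.56 ± 0.09, with 2 of 3 bright probe sets of that sign. Among hepatocyte transcription factors 5 of 14 were called higher and 1 lower as deposited, and 3 and 1 after quantile normalization. NR0B2 (SHP), a repressor of bile acid synthesis, went from 9.35 and 9.57 to 11.13 and 10.98, above all 6 other arrays, a change of 1.60 ± 0.18. FOXA2 rose by 0.82 ± 0.16. With the control array at 24 h left out, 4 plasma proteins and 3 transcription factors were called higher, and with that at 12 h left out 17 and 3.

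Genes of the NF-kappaB and interferon response list were called higher in 9 of 24 and lower in 0 as deposited. After quantile normalization 5 were called higher and 0 lower. The list is named NF-kappaB below for short. The chemokine CCL20 went from 12.04 and 12.22 at 12 h to 13.99 and 13.95 at 24 h, with the 4 earlier arrays at 12.18 to 12.82, a change of 1.84 ± 0.14 (limma adjusted p = 5.8e-08). TNFAIP3 (A20) and NFKBIA, both inhibitors of NF-kappaB, rose by 1.41 ± 0.15 and 0.86 ± 0.14. TAP1, a peptide transporter of antigen presentation, rose by 1.04 ± 0.17. Targets of TGF-beta and BMP were called higher in 9 of 15 and lower in 1, and in 4 and 1 after quantile normalization, and BAMBI, a decoy receptor, rose by 1.20 ± 0.17. YAP and serum response targets were called higher in 7 of 18 and lower in 2, and higher in 1 and lower in 4 after quantile normalization. CCN2, of this list, rose while VCL (vinculin) and AXL changed by -0.76 ± 0.21 and -0.72 ± 0.20. Leaving out the control array at 24 h, 4 NF-kappaB, 2 TGF-beta and 2 YAP targets were called higher, and leaving out that at 12 h, 7, 5 and 1.

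Among autophagy and lysosome genes 15 of 30 were called higher and 0 lower as deposited, and 5 and 0 after quantile normalization. GABARAPL2 and MAP1LC3B, which coat autophagosomes, rose by 0.93 ± 0.14 and 0.79 ± 0.17, and WIPI2, which recruits their conjugation machinery, by 0.89 ± 0.15. In glycolysis and hypoxia targets 16 of 35 were called higher and 0 lower, and 7 and 0 after quantile normalization. BNIP3L, a mitophagy receptor, went from 11.05 and 11.02 to 12.37 and 12.47, a change of 1.39 ± 0.16, and NDRG1 rose by 1.27 ± 0.13. In the ATF4 and amino acid response list 10 of 33 were called higher and 2 lower, and 4 and 6 after quantile normalization. CEBPB rose by 1.03 ± 0.14, SLC38A2, a glutamine transporter, by 0.76 ± 0.10, and ATF4 itself by 0.65 ± 0.12 (0.29 after quantile normalization). Without the control array at 12 h the genes called higher were 6 for autophagy, 6 for glycolysis and 4 for ATF4, and without that at 24 h 3, 13 and 3. The glycolysis count was 25 without the quercetin array at 12 h and 6 without that at 24 h.

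Circadian clock genes were called higher in 5 of 15 and lower in 0 on either scale. NR1D2 (REV-ERB beta), a repressor arm of the clock, went from 7.98 and 8.38 at 12 h to 9.34 in both arms at 24 h, a change of 1.16 ± 0.22. NFIL3 rose by 0.94 ± 0.15, RORA by 0.85 ± 0.18, HLF by 0.80 ± 0.13 and PER2 by 0.77. BMAL1 and CRY2 stood at 0.09 and 0.18, not called. RORA had already changed by 1.68 from 4 to 12 h, a contrast that shares the 12 h arrays.

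For large housekeeping machines the direction depended on the scale. Respiratory chain and ATP synthase genes were called higher in 20 of 40 as deposited, with a median of 0.34, and higher in 2 and lower in 4 after quantile normalization, with a median of -0.04. Splicing factors were called higher in 16 of 36 and lower in 1 as deposited, and higher in 1 and lower in 7 after quantile normalization. SRSF5 rose by 0.78 ± 0.13 and was called on both scales. Endoplasmic reticulum stress and folding genes were called higher in 11 of 24 and then in 1, with 5 called lower. Cytosolic ribosomal proteins were called higher in 9 of 34 as deposited and in 0 after quantile normalization (0 lower on either scale), with medians of 0.18 and -0.01 against 0.16 and -0.01 for all genes. Without the control array at 24 h the counts called higher were 4 for the respiratory chain, 2 for splicing, 4 for folding genes and 0 for ribosomal proteins, and without the quercetin array at 12 h 25, 16, 12 and 25.

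**Figure D5:**
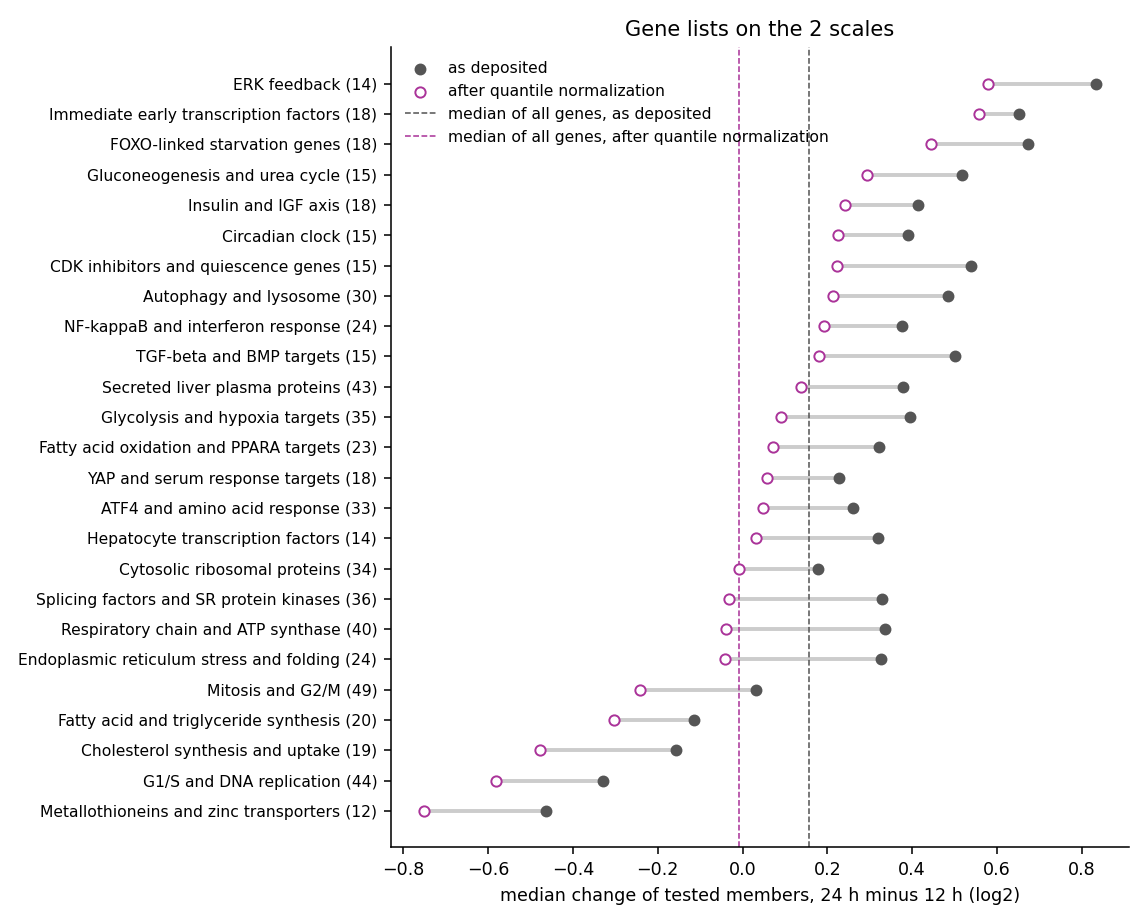
Median change from 12 to 24 h (log2, horizontal axis) of the tested members of 25 gene lists, with the number tested in brackets. Filled points are values as deposited and open points are values after quantile normalization, and the dashed lines are the median of all genes on each scale. ERK feedback genes (0.83 and 0.58) lie farthest to the right on both scales and metallothioneins and zinc transporters (-0.46 and -0.75) farthest to the left.

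Other large falls were spread over several functions. CARD16, an inhibitor of caspase 1 that shares sequence with CASP1, went from 9.57 and 9.38 at 12 h to 7.40 and 7.91 at 24 h, a change of -1.82 ± 0.29, but the quercetin array at 2 h, at 6.84, was lower still. DLEU2, a long noncoding RNA that hosts microRNAs, changed by -1.72 ± 0.25, TEX48 by -1.61 ± 0.30, METTL6, which modifies transfer RNA, by -1.50 ± 0.21 (1 of 2 bright probe sets with that sign) and BCL2L15 by -1.39 ± 0.20. TEX48 changed by -2.64 in control and by -0.58 in quercetin cells, and it lost its call without the control array at 24 h and with robust moderation. BMS1P1, CC2D2B and ENDOD1 changed by -1.37, -1.35 and -1.32. BMS1P1 is a pseudogene with close copies, so its signal may be shared. MALAT1, an abundant nuclear RNA, stood at 12.79 and 13.14 at 12 h and at 11.18 and 12.12 at 24 h, a change of -1.32 ± 0.17, with 8 of 10 bright probe sets pointing down and its gene-specific probe set at 0.42. SMG1P5, also a pseudogene with close copies, changed by -1.29, and MALAT1, SMG1P5, BMS1P1, DLEU2 and MT1X were the 5 falls whose 24 h mean lay farthest below the other times. In the other direction these were DEPP1, LPAR6, DUSP6, FILIP1L and HOXD1. CARD16, DLEU2, TEX48, BMS1P1, CC2D2B and ENDOD1 lost their calls with array class as a block, and METTL6, BCL2L15 and MALAT1 did not. SMG1P5 lost its call in 1 of 20 alternative settings.

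Over other lists the counts called higher and lower as deposited, then after quantile normalization, were as follows. Targets of p53 gave 6 and 0 of 24, then 2 and 2. Proteasome subunits gave 6 and 0 of 26, then 1 and 4. NRF2 antioxidant genes gave 5 and 1 of 24, then 1 and 4. Cytosolic heat shock proteins gave 4 and 1 of 17, then 1 and 6. Iron and heme genes gave 3 and 2 of 20, then 0 and 6. Drug-metabolising enzymes and transporters gave 4 and 4 of 18, then 2 and 2. Acute-phase genes gave 9 and 1 of 16, then 5 and 2. Apoptosis regulators gave 6 and 0 of 23, then 2 and 0, and Wnt genes 6 and 0 of 14, then 3 and 0. Ribosome biogenesis genes gave 5 and 2 of 36, then 2 and 4, nuclear long noncoding RNAs 3 and 1 of 6, then 1 and 2, and replication-dependent histones 1 and 0 of 7 on both scales. Medians of 5 of these lists, p53 targets, NRF2 genes, heat shock proteins, iron and heme genes and the proteasome, were above 0 as deposited and below 0 after quantile normalization, as were those of Wnt genes and ribosome biogenesis.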

How the data were processed

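Total RNA of HepG2 cells was hybridised to 8 Affymetrix arrays, 1 for each treatment and time. The values the authors deposited are log2 signals of 54675 probe sets. RMA is the tool named in the submitters' processing notes, and its version and settings were not given in the sources here. Probe sets were named from the platform annotation: 41097 carried 1 symbol, 1801 carried several and were not named, 11777 were not listed there and 62 were controls. For 41043 the Entrez identifier was found in RefSeq and the RefSeq symbol was used, whether or not it differed. Each of 19775 symbols was represented by its brightest probe set, and 13298 entered the test because their mean passed 7.43, the median over probe sets. The number of arrays limits the precision.

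Genes were fitted over all 8 arrays with limma 3.58.1 in R 4.3.3 (lmFit, eBayes with trend), with the 4 times and treatment as terms and 3 residual degrees of freedom, and the contrast 24 h minus 12 h was adjusted by Benjamini-Hochberg over all genes at 0.05. The same fit was run on quantile-normalized values. The treatment term is the block; the labels give no replicate numbers. Simulated data with 200 shifted genes were used to check the code.

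The genes named are the 12 largest rises and falls called on both scales with the same sign in both arms, up to 4 members of each described list, up to 3 genes in each direction whose arms opposed by at least 0.5 each, and the 5 rises and falls farthest from all other times. List members were taken first from those called, by the smallest adjusted p, and then by size of change. Symbols of uncharacterised loci were passed over (1 rise, 3 falls). Other members and list counts were named after their values were seen. The comparison and the 42 lists were chosen with earlier results of these data known. Promoters were those of RefSeq (GRCh38.p14), 250 bases before to 50 after the start, matched for 10625 genes. Alternatives tried were other filters, probe set rules, normalizations, moderation, blocks, thresholds and leaving out each array or time pair.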

Additional observations from a re-analysis of the deposited data

Results flagged for a closer look

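Some genes and lists moved in opposite directions in the control and quercetin arms between 12 and 24 h. Each difference is quercetin minus control, rests on 1 array a group and was not tested. Of 17 genes with at least 0.5 in each arm in opposite directions, GALK1 (galactokinase) differed by -1.53 (0.94 in control, -0.59 in quercetin cells), RABL6 by -1.44 and PMAIP1 (the apoptosis gene NOXA) by -1.40. CROCC, of the ciliary rootlet, differed by 1.51 and the receptor PILRA by 1.18. GALK1 stood at 8.56 (control) and 9.34 (quercetin) at 12 h and at 9.49 and 8.75 at 24 h. List medians differed by -0.52 for YAP and serum response targets (0.44 in control, -0.08 in quercetin cells), -0.40 for fatty acid and triglyceride synthesis (0.11 and -0.29), -0.22 for cytosolic heat shock proteins, -0.16 for mitosis and G2/M, -0.14 for iron and heme, and -0.10 for drug-metabolising enzymes and transporters. The median of all genes was itself 0.25 in control and 0.07 in quercetin cells on the deposited scale.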

How the results depend on the processing

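The 3158 calls became 1844 with the mean of each gene's probe sets, 1994 after quantile normalization, 922 with array class as a block, 2097 with the 18S signal as a covariate, 1570 at adjusted p under 0.01 and 330 with a change of at least 1. Leaving out 1 array gave 853 to 3211 calls and 80.2% to 85.2% of calls higher, against 79.9%. That share was 73.7% with no filter, 87.9% with a filter at the 75th percentile, 78.0% with gene-specific probe sets or only the 12 and 24 h arrays, 81.5% with median centring, 45.1% after quantile normalization, 49.6% with cyclic loess, 76.7% without trend, 92.8% with array class, 86.1% with 18S and 82.2% at adjusted p under 0.01. The 747 genes past 1 in control cells became 357 with the mean of probe sets, 400 after quantile normalization and 3656 at 1.5-fold, and the 262 in quercetin cells became 111 and 1757 with the mean of probe sets and at 1.5-fold. Of 114 genes tested by name 113 were called, which follows from the naming rule, because it takes called genes first. Of these, 46 kept their call in every setting run. Signs turned for ACACB (0.0083) and SRSF4 (-0.10) with the mean of probe sets, for MALAT1 (0.42), FGA (-0.16), TGIF1 (-0.35), ATP5F1C (-0.36), CALR (-0.45) and HERPUD1 (-0.17) with gene-specific probe sets, for FABP1 (-0.040), RPLP1 (-0.041) and RPS28 (-0.076) with cyclic loess, for CENPI (0.029), HMGCS1 (0.045) and RPL27A (-1.76) with array class, and for RPL27A (-0.33) with 18S. The cause was not tested. Without the treatment block 2999 genes were called. Dim genes, with means at or below 7.43, were not tested, and with 1 array for each treatment and time no change could be set against the spread between like cultures.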
